A study of Mus musculus with 24 samples.

Results

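Foxa3 binding sites of adult mouse hepatocytes were set against those of induced hepatocyte-like (iHep) cells of line 4a3, both mapped by chromatin immunoprecipitation and sequencing (ChIP-seq) with a Foxa3 antibody. The hepatocytes came from livers of 10-week-old C57BL/6 mice and gave 1 list of peaks, with EGS and the number 4 in its title. Line 4a3 was made from C57BL/6 mouse embryonic fibroblasts of embryonic day 13.5, infected with Foxa3 and Hnf4alpha, and gave 3 lists, EGS 1, EGS 3 and number 2 without EGS. For comparison only, lines 4a1 and 4a2 were made from such fibroblasts with Foxa1 and Hnf4alpha or with Foxa2 and Hnf4alpha. The labels do not spell out EGS, name no infection of the hepatocytes, and do not say whether the 3 line 4a3 samples were separate inductions or how many mice gave the hepatocytes. Members were all peaks of these 4 lists, chosen by antibody and cell from the sample titles, 6700 of the 26332 peaks in the 14 lists of the series. They merged into 5713 regions, of 18022 in the whole series. Of the 5713 regions, 810 held a hepatocyte peak only, 202 held a peak of both cells, and 4701 held a line 4a3 peak only.

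Foxa3 is one of 3 related forkhead transcription factors of liver and gut. Foxa proteins bind DNA through a winged-helix domain, can attach to their sites on nucleosomes, and are called pioneer factors for that reason. In the liver they act with Hnf4alpha, a nuclear receptor, on genes of hepatocytes. Introduction of a Foxa factor together with Hnf4alpha is known to turn mouse fibroblasts into cells with hepatocyte features. ChIP-seq reads a site out as a peak, a stretch of DNA recovered with the antibody more often than its surroundings, so a peak shows recovery and not the effect of binding.

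The lists differed in length before any comparison. The hepatocyte list held 1091 peaks over 196.2 kb. The line 4a3 lists held 1246 peaks over 236.1 kb for EGS 1, 46 peaks over 8.5 kb for EGS 3, and 4317 peaks over 1134 kb without EGS. The EGS 3 list stands apart by its length, and results were therefore also taken without it. The median peak was 137 bp wide in hepatocytes, against 149, 147.5 and 180 bp in EGS 1, EGS 3 and the list without EGS. The files give no read numbers, so depth is unknown. Each of the 3 EGS lists has a code of its own at the end of its title, which the labels do not explain. Cell type, introduced factor and whatever that code marks cannot be told apart. The files hold no expression values, so the identity of the cells was not checked.

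A peak was called found in the other cells where it overlapped one of their Foxa3 peaks by at least 1 bp. A chain was a run of at least 4 peaks of 1 list with gaps of up to 10 kb. Intervals are exact 95% Clopper-Pearson intervals over peaks or regions. They cover counting error only and are too narrow for chains, whose peaks are neighbours and not independent.

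Peaks of the hepatocyte list lay in chains more often than those of line 4a3. In hepatocytes 660 of 1091 peaks, 60.5%, lay in 67 chains. In line 4a3 the share was 27.4% in EGS 1 (341 of 1246 peaks, 45 chains), 32.6% in EGS 3 (15 of 46 peaks, 2 chains) and 30.4% without EGS (1314 of 4317 peaks, 201 chains). The hepatocyte share lay above all 3 line 4a3 lists, which averaged 30.1% ± 2.63 (SD, n = 3), a difference of 30.4 percentage points (exact permutation test, two-sided, p = 0.25, the least that 1 list against 3 can give). With peaks of a list within 1 kb merged first, the share was 20% in hepatocytes and a mean of 3.09% in line 4a3, a difference of 16.9 points. With every peak inside a chain span of any list counted, chosen after the data were seen, it was 66.0% in hepatocytes and a mean of 49.9% in line 4a3, a difference of 16.1 points (exact permutation p = 1.0). In that count EGS 3 lay above hepatocytes, and EGS 1 and the list without EGS lay below. Of the 46 EGS 3 peaks, 26 lay in spans with chains of both cells and 11 in spans with a line 4a3 chain only. Hepatocyte chains held a median of 7 peaks and at most 48. The median chain held 6 peaks in EGS 1, 7.5 in EGS 3, which has 2 chains, and 5 without EGS, with at most 22, 9 and 35. Within chains the median gap was 410 bp in hepatocytes, against 429.5 bp in EGS 1, 358 bp in EGS 3 and 252 bp without EGS.

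Near the limit of the chain rule, hepatocytes had 15 chains of exactly 4 peaks and 25 runs of 3 that fell short. EGS 1 had 13 and 28, EGS 3 had 0 and 2, and the list without EGS had 67 and 123. The widest gap inside a hepatocyte chain was 9931 bp and the narrowest gap just beyond the limit was 10344 bp. A further 242 hepatocyte peaks had no other peak of the list within 10 kb, against 657 in EGS 1, 11 in EGS 3 and 1798 without EGS.

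**Figure D1:**
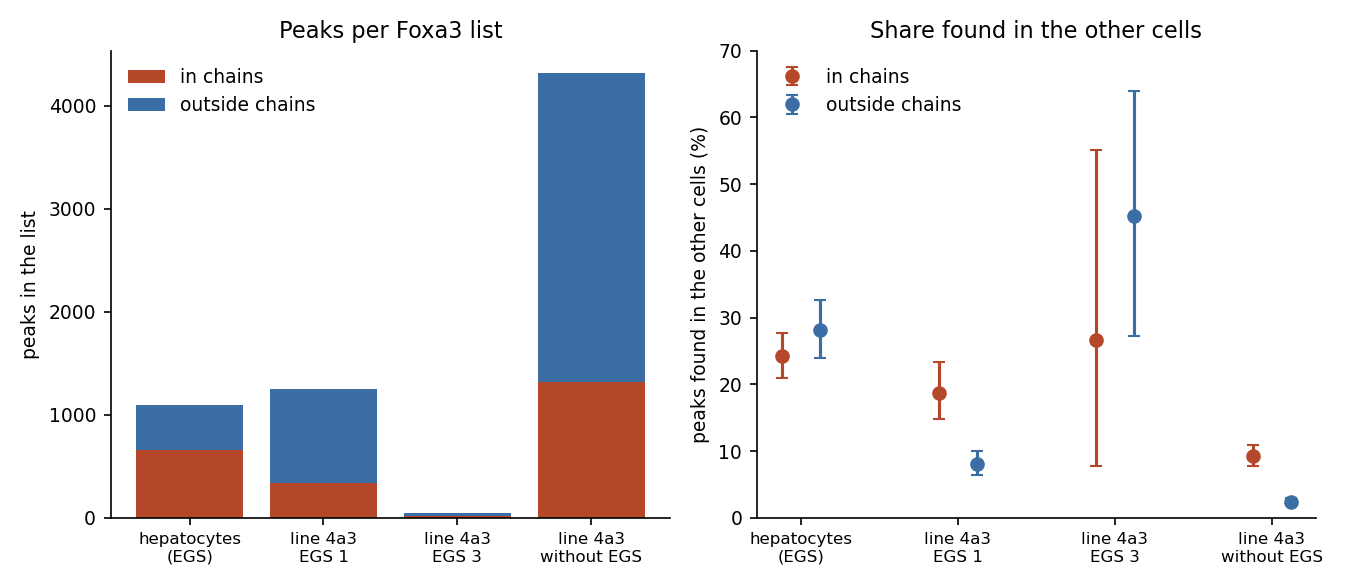
The left panel plots the number of peaks in each Foxa3 list, split by chains of at least 4 peaks with gaps of up to 10 kb, and the right panel the share of those peaks that overlap a Foxa3 peak of the other cells, with exact 95% intervals. Chain and other peaks of hepatocytes were found in line 4a3 at 24.2% and 28.1%, while in EGS 1 the chain peaks were found in hepatocytes at 18.8% and the others at 8.07%.

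Whether hepatocyte peaks in chains were found in line 4a3 less often than those outside depended on the setting. Over the whole list 25.8% of the peaks were found. The share was 24.2% of the 660 chain peaks (160 peaks, interval 21.0 to 27.7) and 28.1% of the 431 peaks outside chains (121 peaks, 23.9 to 32.6), and these intervals overlap. With chains of at least 6 peaks they were 20.9% (17.6 to 24.5) in and 30.99% (27.1 to 35.1) outside chains, and with peaks within 1 kb merged 16.9% (10.7 to 24.96) and 30.9% (26.8 to 35.3), where the intervals do not overlap. In the 300 top-scoring peaks of each list they were 15.04% (9.01 to 23.0) and 27.8% (21.5 to 34.8), with overlap. Without the 4 spans where the hepatocyte Foxa1 or Foxa2 list has a chain too, an alternative chosen after the data were seen, the share in chains was 28.3% (24.6 to 32.3), beside 28.1% outside. Of the 160 found chain peaks, 8 were in all 3 line 4a3 lists, 61 in EGS 1 and the list without EGS, 73 in the list without EGS alone, 16 in EGS 1 alone and 2 in EGS 3 and the list without EGS. Of the 121 found peaks outside chains, 9 were in all 3 lists, 48 in EGS 1 and the list without EGS, 56 in the list without EGS alone and 8 in EGS 1 alone. The longest list decided these shares: with the EGS lists alone they were 13.2% (10.7 to 16.004) in chains and 15.1% (11.8 to 18.8) outside.

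Chains here are those of a peak's own list. Of the 431 hepatocyte peaks outside hepatocyte chains, 49 overlapped a peak of a line 4a3 chain. When every peak inside a chain span of any of the 4 lists was counted as a chain peak, 29.3% of 720 chain peaks and 18.9% of the other 371 hepatocyte peaks were found. That count, chosen after the data were seen, moves hepatocyte peaks into chains because line 4a3 has peaks there, so its higher share in chains is built in and is no result.

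In the reverse comparison EGS 1 and the list without EGS gave shares below the 25.8% of hepatocyte peaks found in any line 4a3 list. Chain peaks were ahead in these lists, and EGS 3 followed neither order. Of the 4915 merged regions of line 4a3, 4.35% held a hepatocyte peak. Inside chains it was 9.35% of 1465 regions (7.91 to 10.96), and outside chains 2.23% of 3450 regions (1.77 to 2.78). By list, 10.995% (9.31 to 12.9) of EGS 1 peaks were found in hepatocytes, 39.1% (25.1 to 54.6) of the 46 EGS 3 peaks, and 4.47% (3.87 to 5.13) of peaks without EGS. With EGS 1 as the only target, 13.7% (11.8 to 15.9) of hepatocyte peaks were found, and this interval overlaps that of the EGS 1 peaks. Leaving out the list without EGS, 11.1% of the line 4a3 regions held a hepatocyte peak and 133 regions were shared, against 202 with all lists. Chain peaks were found more often than others in EGS 1, at 18.8% (14.8 to 23.3) against 8.07% (6.38 to 10.0), and without EGS, at 9.21% (7.70 to 10.9) against 2.40% (1.88 to 3.01). In EGS 3 the shares were 26.7% (7.79 to 55.1) of 15 chain peaks and 45.2% (27.3 to 64.0) of 31 others, with intervals that overlap.

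With the list without EGS as the target, EGS 1 was met more than hepatocytes. With EGS 1 as the target no such order was seen, but there the source lists were of unlike length. Against the list without EGS, 23.6% (21.1 to 26.2) of hepatocyte peaks were found, compared with 51.0% (48.1 to 53.8) of EGS 1 peaks, although both source lists are of like length. Of the 67 hepatocyte chains, 22 overlapped a chain of the list without EGS (32.8%, 21.8 to 45.4), compared with 31 of the 45 EGS 1 chains (68.9%, 53.4 to 81.8). All 45 EGS 1 chains held at least 1 peak of the list without EGS, compared with 36 of 67 hepatocyte chains (53.7%, 41.1 to 66.0). Against EGS 1, 13.7% (11.8 to 15.9) of hepatocyte peaks were found, compared with 12.6% (11.6 to 13.6) of peaks without EGS. An EGS 1 chain was overlapped by 12 of 67 hepatocyte chains (17.9%, 9.61 to 29.2), compared with 30 of 201 chains without EGS (14.9%, 10.3 to 20.6), and an EGS 1 peak lay in 50.7% and 49.8% of these chains. The hepatocyte list has 1091 peaks and the list without EGS 4317, against 1246 in EGS 1. A target this short limits the share of the longer list, so these values cannot settle an order. The spread between hepatocyte samples is unknown, since there is 1 list.

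Chains of the 4 lists overlapped into 258 spans, which fall into 3 kinds. A chain of hepatocytes alone made 43 spans, chains of both cells made 24, and a chain of line 4a3 alone made 191. Of the 191, 179 had a chain of the list without EGS, 32 one of EGS 1, 20 both, and 0 one of EGS 3. Most of the 191 thus rest on a chain of the list without EGS alone. The 43 hepatocyte spans held 457 hepatocyte peaks and 32 line 4a3 peaks, and 28 of them held no line 4a3 peak at all. Only 20 of their 457 hepatocyte peaks were found in line 4a3 (4.38%, 2.69 to 6.68). In the 24 spans of both cells, 142 of 205 hepatocyte peaks were found (69.3%, 62.5 to 75.5). Of the 191 spans of line 4a3, 35 held a hepatocyte peak and the rest none. Together they held 58 hepatocyte peaks, of which 49 were found. Hepatocyte chain peaks thus came from spans with a high share found and spans with a low one, but the kinds are defined by the line 4a3 chains themselves, so this contrast is a description. A Foxa1 or Foxa2 peak of lines 4a1 and 4a2 lay in 36.4% of the 258 spans. It was 25.6% (13.5 to 41.2) of the hepatocyte spans, 41.7% (22.1 to 63.4) of those of both cells and 38.2% (31.3 to 45.5) of those of line 4a3, with intervals that overlap.

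**Figure D2:**
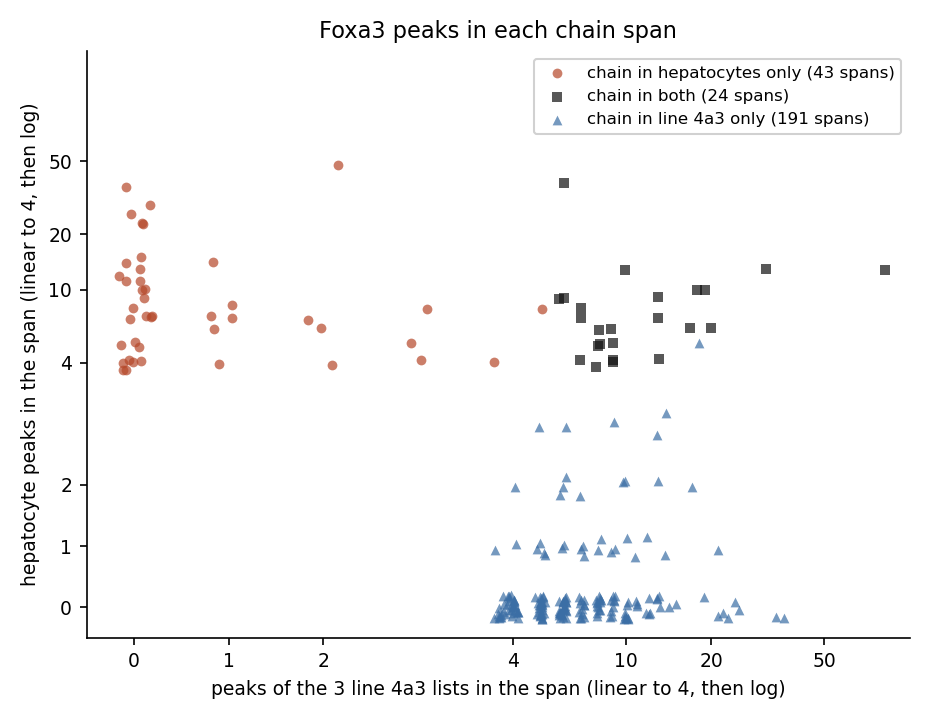
Each point is 1 of the 258 chain spans, with the peaks of the 3 line 4a3 lists together on the x axis and hepatocyte peaks on the y axis, both linear to 4 and logarithmic beyond, and points shifted slightly so that they can be told apart. Of the 43 spans with a hepatocyte chain alone, 28 lie at 0 line 4a3 peaks, and all but 35 of the 191 spans with a line 4a3 chain alone lie at 0 hepatocyte peaks.

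Peaks of long hepatocyte chains were found in line 4a3 less often than those of short chains. Chains of 4 or 5 peaks had 42 of 95 peaks found (44.2%, 34.0 to 54.8), chains of 6 to 9 had 65 of 175 (37.1%, 30.0 to 44.8), and chains of 10 or more had 53 of 390 (13.6%, 10.3 to 17.4). Of the 21 chains of 10 or more peaks, 8 held any line 4a3 peak and 6 overlapped a line 4a3 chain. Of the 24 chains of 6 to 9 peaks 18 held a line 4a3 peak and 10 overlapped a chain, and of the 22 shortest chains 13 and 8. Counted by chain, those of 6 to 9 peaks thus led and the longest came last. The intervals above are over neighbouring peaks and are too narrow. In 4 spans, on chromosomes 9, 10, 11 and 17, the hepatocyte Foxa1 or Foxa2 list had a chain too. That on chromosome 17 has 8 hepatocyte Foxa3 peaks, and the other 3 have 10 or more. These 4 held 106 hepatocyte Foxa3 peaks, 9.72% of the list, and 5 line 4a3 peaks. Without them 18.2% (13.9 to 23.1) of the 292 peaks in chains of 10 or more were found.

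The 5 spans with most hepatocyte peaks were led by 58.73 kb of chromosome 11, from 3041272 to 3100001 (all coordinates mm9, starts counted from 1). It held 48 hepatocyte peaks, against 1 of EGS 1, 0 of EGS 3 and 1 without EGS, and none of the 48 was found. This is one of the 4 spans dense in other lists, with 23 peaks of the hepatocyte Foxa2 list. The span on chromosome 9 from 3002168 to 3037293 is another. It held 36 hepatocyte Foxa3 peaks and no line 4a3 Foxa3 peak, beside 70 hepatocyte Foxa1 peaks, 33 hepatocyte Foxa2 peaks and 74 Foxa1 peaks of EGS 2 of line 4a1. Its highest hepatocyte Foxa3 score was 9.22, at the 48.7th percentile of the list, so its peaks were many but not high.

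The remaining 3 were dense with the Foxa3 antibody alone. On chromosome 14, from 41917905 to 41940119, 22.2 kb held 29 hepatocyte peaks and 0 peaks of each line 4a3 list. On chromosome 5, from 90890065 to 90906699, 16.6 kb held 26 hepatocyte peaks, again against 0 in each line 4a3 list. These 26 peaks covered 11243 bp of the span, and the highest stood at the 99.4th percentile of the list. No Foxa1, Foxa2 or Flag list had a peak in either span. On chromosome 4, from 150226804 to 150249468, 38 hepatocyte peaks spread over 22.7 kb, against 2 of EGS 1, 0 of EGS 3 and 4 without EGS. The line 4a3 peaks there lay between 150229124 and 150232214, near one end of the span, and 5 of the 38 hepatocyte peaks were found.

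Further spans were picked after their values were seen. These had a long hepatocyte chain, no peak in any line 4a3 list and no chain of another antibody. They were chr4:49547681-49562222 with 23 hepatocyte peaks, chr12:7988106-8026106 with 23, chr8:112514431-112523543 with 15, chr12:110088822-110098419 with 13 and chr2:172972616-172986402 with 12. Each held 0 peaks of EGS 1, EGS 3 and the list without EGS, and 0 of every Foxa1, Foxa2 and Flag list. That no other list of the series had a peak in these 5 spans follows in part from how they were picked. The span on chromosome 10 from 7229710 to 7237012 had 14 hepatocyte Foxa3 peaks and no line 4a3 Foxa3 peak. It was left out for its 8 hepatocyte Foxa1 and 11 hepatocyte Foxa2 peaks.

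**Figure D3:**
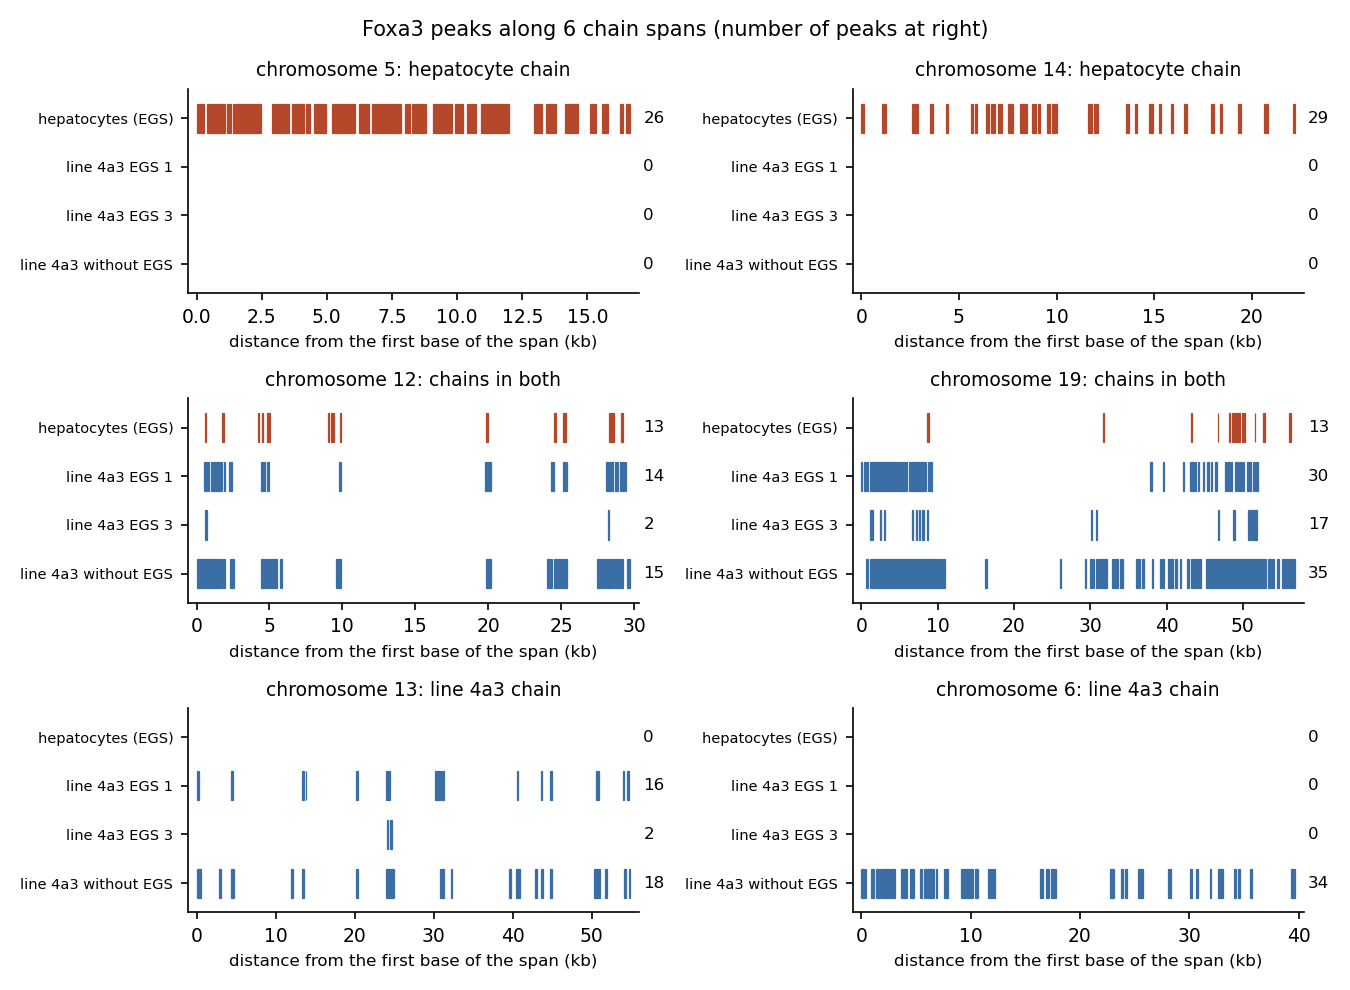
Peaks of the 4 Foxa3 lists are drawn to scale along 6 named spans, with the distance from the first base of the span in kb on the x axis and the number of peaks at the right. The spans on chromosomes 5 and 14 hold 26 and 29 hepatocyte peaks and no line 4a3 peak, those on chromosomes 12 and 19 hold 13 hepatocyte peaks each beside line 4a3 peaks, and those on chromosomes 13 and 6 hold no hepatocyte peak.

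The span with most line 4a3 peaks was on chromosome 19, from 5793489 to 5850312, and hepatocytes had a chain there too. It held 13 hepatocyte peaks, against 30 of EGS 1, 17 of EGS 3 and 35 without EGS, and all 13 hepatocyte peaks were found. The 17 peaks there are 37.0% of the 46 peaks of EGS 3. Peaks of the list without EGS covered 27069 bp, in part as a single peak of 9304 bp, and its highest score was the top of that list. The hepatocyte peaks covered 2347 bp, from 5802143 to 5849741, and the highest of them stood at the 70.3rd percentile. On chromosome 12, from 55810556 to 55840284, counts were closer, with 13 hepatocyte peaks against 14 of EGS 1, 2 of EGS 3 and 15 without EGS. There 10 of the 13 hepatocyte peaks were found, and the highest peak stood at the 99.8th percentile in hepatocytes, at the 99.8th in EGS 1, at the 85.9th in EGS 3 and at the 99.95th without EGS.

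The other 3 leading spans of line 4a3 held no hepatocyte peak. On chromosome 13, from 23622996 to 23677820, hepatocytes had 0 peaks, against 16 of EGS 1, 2 of EGS 3 and 18 without EGS. On chromosome 6, from 52171874 to 52211547, hepatocytes had 0 peaks, and so had EGS 1 and EGS 3, while the list without EGS had 34. That span therefore rests on 1 library. On chromosome 18, from 43882007 to 43900655, hepatocytes had 0 peaks, against 7 of EGS 1, 0 of EGS 3 and 18 without EGS.

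Chains of both cells were next compared where each side was long, in spans picked after their values were seen. On chromosome 5, from 125862704 to 125873996, 10 hepatocyte peaks stood against 11 of EGS 1, 1 of EGS 3 and 6 without EGS, with 8 of the 10 found. On the same chromosome, from 143657022 to 143672259, there were 10 hepatocyte peaks, against 8 of EGS 1, 0 of EGS 3 and 11 without EGS, with 9 found. On chromosome 7, from 29157252 to 29167610, 13 hepatocyte peaks stood against 1 of EGS 1, 0 of EGS 3 and 9 without EGS, with 10 found. In these 3 spans most hepatocyte peaks overlapped line 4a3 peaks, unlike in the span of both cells on chromosome 4, where 33 of 38 did not. Some other spans of both cells lay between, with 4 of 9 found on chromosome 15 from 3220683 and 3 of 8 on chromosome 12 from 81211039. Over all 24 spans of both cells, 142 of 205 hepatocyte peaks were found.

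Outside chains, 310 regions were found in hepatocytes only, 63 in both cells and 3373 in line 4a3 only. The list without EGS had a peak in 2917 of these 3373, and in 1196 of the 1328 line 4a3-only regions in chains. The 63 shared regions were a median of 319 bp wide, the 310 hepatocyte-only regions 117 bp and the 3373 line 4a3-only regions 163 bp. A region made of peaks from several lists is wider by construction. Of the 63, 5 held a peak in all 4 Foxa3 lists, 22 in 3 and 36 in 2. Support inside line 4a3 went with sharing: 27 of the 63 shared regions (42.9%, 30.5 to 56.0) were in at least 2 line 4a3 lists, against 283 of 3373 line 4a3-only regions (8.39%, 7.48 to 9.38). Inside chains it was 75 of 139 shared regions (54.0%, 45.3 to 62.4) and 147 of 1328 line 4a3-only regions (11.1%, 9.43 to 12.9).

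All 5 regions outside chains in all 4 lists ranked high, at a mean percentile over the lists of 87.0 to 97.4. Taking the highest peak of each list, the region on chromosome 11 from 69571649 to 69572490 stood at the 97.5th percentile of the hepatocyte list, and at the 98.8th, 93.5th and 99.8th of EGS 1, EGS 3 and the list without EGS. The region on the same chromosome from 101519137 to 101519572 held the highest score of the hepatocyte list, 28.1, at the 99.95th percentile, a score that more than 1 peak of the list has. In EGS 1, EGS 3 and the list without EGS it stood at the 99.3rd, 77.2nd and 99.7th percentile. The others were chr5:115939268-115940299 (mean percentile 93.6), chr13:23713161-23714883 (88.4) and chr11:115885002-115885848 (87.0). None of the 5 held a peak of a Foxa1, Foxa2 or Flag list.

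The leading hepatocyte-only regions outside chains were narrow peaks, of high rank because rank chose them. They were chr12:112776449-112776596 with a score of 24.3, chr1:90108595-90108738 with 19.3, chr9:56071497-56071630 with 19.2, chr6:51419079-51419206 with 18.8 and chr6:52663810-52663923 with 18.3. All were at or above the 97.5th percentile of the hepatocyte list and had no overlapping peak in EGS 1, EGS 3 or the list without EGS. Only that on chromosome 9 was in another list, hepatocyte Foxa1 and the Flag list of line 4a3. That on chromosome 6 from 51419079 lay inside the span of a line 4a3 chain, so a hepatocyte-only peak outside hepatocyte chains can lie in such a span. Of the 310 hepatocyte-only peaks outside chains, 41 lay within 1 kb and 69 within 10 kb of a line 4a3 peak, 13.2% and 22.3%.

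The leading line 4a3-only regions outside chains were each in EGS 1 and in the list without EGS, and in neither the hepatocyte list nor EGS 3. They were chr4:131825477-131826546 (mean percentile 99.1), chr11:101488409-101488701 (98.8), chr10:21713264-21721506 (97.7), chr7:31758229-31758577 (97.7) and chr11:106362241-106362746 (97.0). Those on chromosomes 10 and 7 also held Foxa2 peaks of line 4a2, in 1 and 2 lists. Of the 3373 such regions, 73 lay within 1 kb of a hepatocyte peak without overlapping it, 2.164%.

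The score of a peak, which the grouping did not use, was higher for shared peaks in each of the 3 longer lists. The score is the authors' own value, given here as a percentile within its list. In hepatocytes the median percentile was 58.9 for found and 43.1 for other peaks in chains, and 65.4 and 43.1 outside chains. In EGS 1 it was 78.4 and 46.2 in chains, and 63.0 and 52.0 outside. Without EGS it was 90.3 and 48.8 in chains, and 79.4 and 48.8 outside. Widths moved with this in line 4a3, where found chain peaks of EGS 1 had a median width of 312.5 bp and the others 158 bp, and those without EGS 397 and 226 bp. In hepatocytes they were 149.5 and 153 bp in chains, and 129 and 117 bp outside. In EGS 3 outside chains they were 140.5 and 161 bp. The part of width in these differences was not tested.

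The 3 longer lists were also cut at the quartiles of their scores into 4 classes, 1 the lowest and 4 the highest, which tied scores make unequal in size (244 to 354 peaks in EGS 1). Of hepatocyte peaks outside chains, 17.0% (10.2 to 25.8) were found in line 4a3 in class 1, 23.1% in class 2, 23.8% in class 3 and 50.5% (40.2 to 60.8) in class 4. In hepatocyte chains the shares were 13.7% (8.88 to 19.8), 22.4%, 32.5% and 28.4% (21.9 to 35.7). Hepatocyte peaks of class 4 outside chains were thus found more often than chain peaks of class 4. Their intervals do not overlap, but that of the chain peaks is too narrow. In line 4a3 the order was the other way. In class 4 of EGS 1, 38.6% (28.4 to 49.6) of chain peaks and 14.8% (10.4 to 20.3) of the others were found in hepatocytes, and without EGS 18.5% (14.8 to 22.7) and 5.87% (4.22 to 7.90).

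**Figure D4:**
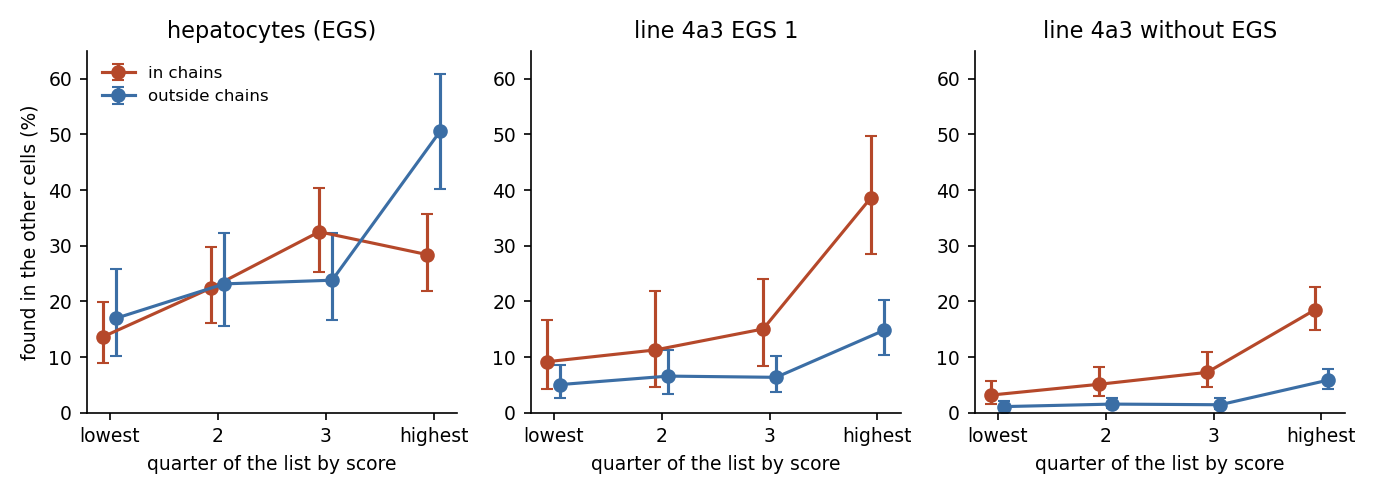
The share of peaks found in the other cells is plotted against score classes 1 (lowest) to 4 (highest) of each list, with exact 95% intervals, for peaks in and outside chains of the hepatocyte list and of the 2 longer line 4a3 lists. Among hepatocyte peaks outside chains the share was 17.0% in class 1 and 50.5% in class 4.

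Lists of other antibodies were not used in the grouping. Over all 5713 regions, 2.17% held a peak of the hepatocyte Foxa1 or Foxa2 list. Of hepatocyte-only regions, 72 of 500 in chains held one (14.4%, 11.4 to 17.8) and 13 of 310 outside (4.19%, 2.25 to 7.06). All 72 lay in the 4 spans where these lists have a chain, so that none of the other 397 chain regions held one follows largely from how the spans were picked. Among shared regions it was 4 of 139 in chains and 4 of 63 outside. The hepatocyte Foxa1 and Foxa2 lists are short, with 166 and 244 peaks, which limits these shares.

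The Foxa1 lists of line 4a1 and the Foxa2 lists of line 4a2 are longer, and over all 5713 regions 15.9% held a peak of one of these 6 lists. Without the 4 spans, which were picked on hepatocyte lists, 1 of 397 hepatocyte-only regions in chains did (0.252%, 0.00638 to 1.40), against 19 of 310 outside chains (6.13%, 3.73 to 9.41). Shared regions reached 11 of 136 in chains (8.09%, 4.11 to 14.01) and 8 of 63 outside (12.7%, 5.65 to 23.5). Line 4a3-only regions reached 115 of 1328 in chains (8.66%, 7.20 to 10.3) and 706 of 3372 outside (20.9%, 19.6 to 22.4). Chain regions held such a peak less often than regions outside chains among hepatocyte-only and among line 4a3-only regions. For shared regions the intervals overlap. For hepatocyte-only regions the order rests on leaving out the 4 spans: with them 44 of 500 chain regions held such a peak (8.80%, 6.47 to 11.6).

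By factor, 8.58% of the 5713 regions held a Foxa1 peak of line 4a1 and 14.8% a Foxa2 peak of line 4a2. The Foxa1 lists hold 940, 542 and 3431 peaks and the Foxa2 lists 957, 1040 and 11408, the longest of each without EGS. These shares therefore cannot be compared between factors. Of the 500 hepatocyte-only chain regions, 40 held a Foxa1 peak of line 4a1, and all 40 lay in the 4 spans. Outside chains 8 of 310 hepatocyte-only regions held one (2.58%, 1.12 to 5.02), 4 of 63 shared regions (6.35%, 1.76 to 15.5) and 387 of 3373 line 4a3-only regions (11.5%, 10.4 to 12.6). A Foxa2 peak of line 4a2 was held by 17 of the 310 (5.48%, 3.23 to 8.64), 8 of the 63 and 690 of the 3373 (20.5%, 19.1 to 21.9). With either factor, line 4a3-only regions outside chains were met more often than hepatocyte-only regions outside chains. The line 4a3-only regions were also wider, at a median of 163 bp against 117 bp, and 2917 of the 3373 had a peak without EGS. The part of width and of EGS in this order was not tested.

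**Figure D5:**
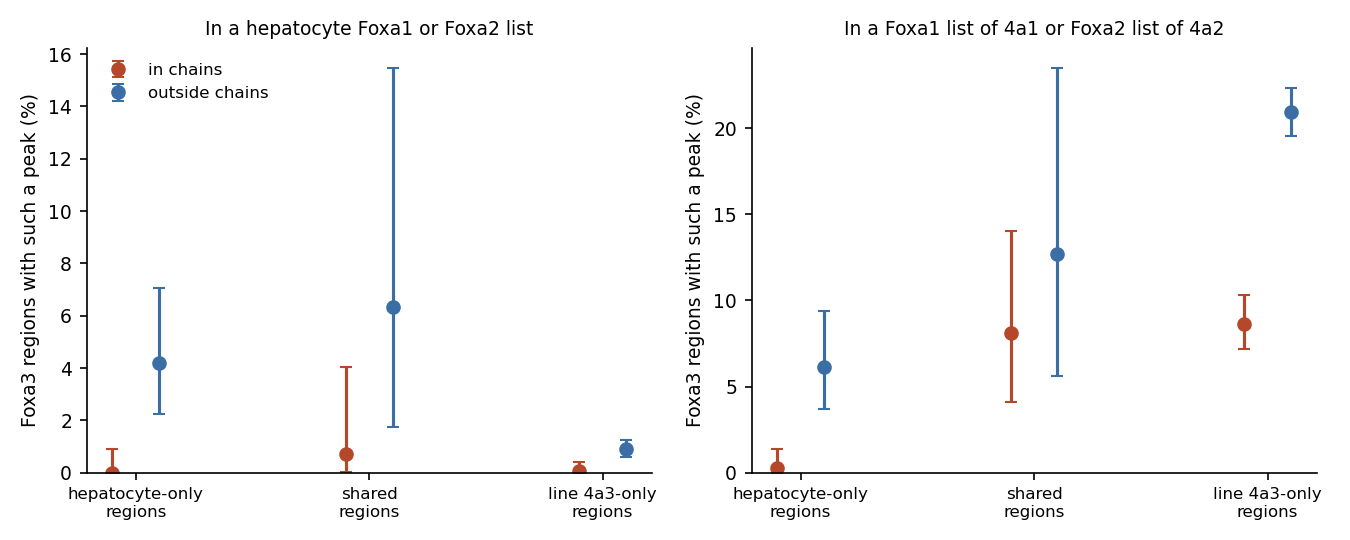
The share of Foxa3 regions that hold a peak of the hepatocyte Foxa1 or Foxa2 list (left) or of a Foxa1 list of line 4a1 or Foxa2 list of line 4a2 (right) is plotted by class, in and outside chains, with exact 95% intervals and without the 4 spans where the hepatocyte Foxa1 or Foxa2 list has a chain. Hepatocyte-only regions in chains stand at 0 on the left, largely because the spans left out were picked on the same lists, and at 0.252% on the right.

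The order between found and other peaks was also taken within single lists. Of EGS 1 peaks outside chains, 13.7% (6.77 to 23.8) of those found in hepatocytes and 32.8% (29.6 to 36.1) of the others overlapped a Foxa1 or Foxa2 peak of lines 4a1 and 4a2. EGS 1 peaks outside chains with no hepatocyte peak were thus more often met in the other iHep lines. Without EGS the shares were 11.1% (4.92 to 20.7) and 18.7% (17.3 to 20.2), and these intervals overlap. For hepatocyte peaks outside chains they were close, at 6.61% (2.90 to 12.6) of those found in line 4a3 and 6.13% (3.73 to 9.41) of the others. Lines 4a1 and 4a2 differ from line 4a3 in antibody and introduced factor together, and these cannot be told apart.

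With the Flag antibody, which recognises an epitope tag, line 4a3 gave a list of 883 peaks. Its lowest score was 50 and its median 61.15, against 5.01 and 9.27 in the hepatocyte Foxa3 list. Why these scores differ is not stated, which limits the shares below. Over all regions 5.43% held such a Flag peak. With all spans these included 16 of 500 hepatocyte-only (3.20%, 1.84 to 5.14) and 12 of 139 shared regions in chains (8.63%, 4.54 to 14.6), against 29 of 1328 line 4a3-only regions in chains. Without the 4 spans these were 0 of 397 hepatocyte-only regions in chains (up to 0.925%), 9 of 136 shared regions in chains (6.62%, 3.07 to 12.2) and 29 of 1328 line 4a3-only regions in chains (2.18%, 1.47 to 3.12). Outside chains they were 9 of 310 (2.90%, 1.34 to 5.44), 4 of 63 (6.35%, 1.76 to 15.5) and 240 of 3372 (7.12%, 6.27 to 8.04). A Flag list of line 4a2, of 21 peaks, met 0.21% of all regions: 0 of 810 hepatocyte-only, 4 of 202 shared (1.98%, 0.542 to 4.99) and 8 of 4701 line 4a3-only regions. The tagged protein is not named in the labels.

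Chromosomes took unequal parts. Chromosome 11 held 14.3% of hepatocyte peaks, against 10.03% of EGS 1, 13.04% of EGS 3 and 8.62% of the list without EGS. The hepatocyte share includes the 48 peaks of the span from 3041272, which is also dense in hepatocyte Foxa2. The chromosome held most shared regions, 24 in chains and 11 outside. Chromosome 13 held 13 hepatocyte peaks, 1.19%, against 7.78% of EGS 1, 15.2% of EGS 3 and 3.96% without EGS, and no hepatocyte-only region in a chain. Nor had chromosome 6, which held 17 hepatocyte peaks, 1.56%, against 4.17%, 4.35% and 9.10% in EGS 1, EGS 3 and the list without EGS. Single spans make up part of these counts: the 34 peaks of the list without EGS in the named span of chromosome 6 are among its 393 there.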

How the data were processed

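Per the labels, chromatin was sonicated and pulled down with an antibody, and libraries followed Illumina's instructions. The submitters' processing notes name BWA 0.6.2, MACS2 2.1.0, bedtools 2.16.2 and build mm9, with no settings. Each deposited list gives a position and the authors' score per peak, on a scale not stated, used here only to rank peaks within a list. Which input served each list is not given in the sources used here.

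Peaks of the 4 Foxa3 lists that overlapped by at least 1 bp were merged into regions, with Python 3.11.15, pandas 2.3.3 and numpy 2.4.6. A region lay in a chain if any of its peaks did. Intervals came from scipy 1.17.1, and the chain and overlap code was tested on simulated data. Groups followed the sample titles. The members, the chain rule and the lists were chosen with earlier results of these data known. Named were the 5 spans with most hepatocyte peaks, the 5 with most line 4a3 peaks and, outside chains, 5 regions per class by number of lists and then mean score percentile. No mm9 annotation was used here, so regions carry no gene names and a planned count by gene lists was not made.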

Additional observations from a re-analysis of the deposited data

How the results depend on the processing

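Of hepatocyte peaks, 25.8% were found in line 4a3, and this was 29.3% in the top-scoring 50% of each list and 23.0% in the top 300 peaks. For chain peaks the 24.2%, against 28.1% outside chains, became 15.04% against 27.8% in the top 300, 16.9% against 30.9% with peaks within 1 kb merged and 20.9% against 30.99% with chains of at least 6 peaks. Chosen after the data were seen, it was 28.3% without the 4 spans dense in the hepatocyte Foxa1 or Foxa2 list and 29.3% with every peak inside a chain span counted, when the share outside chains was 18.9%, an order built into that count. Line 4a3 regions found in hepatocytes, 4.35%, were 5.12% in the top 50% and 12.02% in the top 300, where 119 and 58 regions were shared, against 202. Leaving out each line 4a3 list gave 13.9 to 25.8% of hepatocyte peaks, 13.2 to 24.2% in chains, 15.1 to 28.1% outside, 4.36 to 11.1% of line 4a3 regions and 133 to 202 shared regions, with the far values without the list without EGS. The cause of these moves was not tested, beyond fewer peaks entering. The difference in the share of peaks in chains, taken against the line 4a3 mean, stayed positive under all 12 alternatives run. It lay between 16.1 and 34.4 percentage points, and between 29.0 and 31.6 with a line 4a3 list left out. By list the order did not always hold: with every peak inside a chain span counted, EGS 3 lay above hepatocytes. No paired analysis was possible because the hepatocyte list shares no number with the line 4a3 lists. The count by gene lists and its alternatives were not run. Unknown depth, 1 hepatocyte list and 46 peaks in EGS 3 limit all shares.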

Other observations

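Distances were taken for Foxa3 peaks and regions that met no peak of the other cells. Of the 500 hepatocyte chain peaks that were not found, 148 lay within 10 kb of a line 4a3 peak (29.6%), and of the 310 not found outside chains 69 (22.3%). Their median distances were 96.6 and 103 kb. Of line 4a3-only regions, 292 of 1328 in chains (21.99%) and 120 of 3373 outside (3.56%) lay within 10 kb of a hepatocyte peak. Lists of different length set these distances in part, since line 4a3 has 4915 regions and hepatocytes 1091 peaks.

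The 19 regions with a peak in all 4 Foxa3 lists lay 14 in chains and 5 outside. In chains they included 6957 bp of chromosome 19 from 5838626 to 5845582, with 8 hepatocyte peaks against 13 of EGS 1, 6 of EGS 3 and 1 wide peak without EGS.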
